A study of Mus musculus with 12 samples.

Results

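Epidermal transcripts, 10 in all, were followed in sorted dermal fibroblasts: the keratins Krt5, Krt14, Krt15, Krt10 and Krt6b, the junction genes Perp and Dsp, the transcription factor genes Trp63 and Tfap2a, and the surface glycoprotein gene Cd24a. Members were taken by gene symbol from the platform annotation, using every probe set that carried one member's symbol alone, and all 10 members, with 21 probe sets between them, were found among the 18193 genes measured. The brightest probe set by mean over the 12 arrays stood for each gene. Fibroblasts had been sorted for green fluorescence from back skin of 7-week-old male mice that all carried a PDGFRα-H2B-eGFP allele, in which the Pdgfra locus drives a nuclear fluorescent protein. Pap denotes the 4 arrays of tumour-associated InvEE skin, InvEE the 4 arrays of inflamed InvEE skin, and WT the 4 arrays of normal wild-type skin. In InvEE mice the involucrin promoter drives an activated MEK1 kinase in suprabasal keratinocytes. The labels do not say whether replicates were separate animals or pools, so p-values cover the spread among these arrays alone, and that spread may be technical. The transcripts were compared between groups as a readout of keratinocyte RNA in the sorted fibroblast samples. Which cells the RNA came from was not tested.

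Keratins form intermediate filaments from pairs of a type I and a type II chain. Basal keratinocytes make the pair of Krt5 and Krt14, cells that leave the basal layer switch to Krt10 with Krt1, and wounded or hyperproliferative epidermis adds Krt6, Krt16 and Krt17. Filaments are anchored at desmosomes through desmoplakin, and the p63 and AP-2 transcription factors maintain the epidermal programme. In skin the interfollicular epidermis and the hair follicles are the main sources of these RNAs, although AP-2 factors, Cd24a and Perp are not restricted to keratinocytes. In bulk RNA, fewer cells of a type and less RNA per cell cannot be told apart.

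Values are log2 intensities, 1 per probe set and array, after quantile normalization. Calls come from limma's moderated test over all 18193 genes with 12 arrays in 1 fit, at a Benjamini-Hochberg adjusted p under 0.05. Group means below 6.16, which bounds the dimmest 40% of probe sets by mean, are called dim, and differences that involve a dim group depend on the background correction, which no source used here describes. The fibroblast markers were bright in every array: the mean over 11 markers lay between 13.08 and 13.26 in Pap, between 12.76 and 12.95 in InvEE and between 12.94 and 13.03 in WT arrays, and Pdgfra averaged 10.87, 10.62 and 9.94 in Pap, InvEE and WT arrays. The poly-A spike controls, RNAs added at labelling, averaged 9.83 to 12.57 in Pap, 7.92 to 8.68 in InvEE and 9.27 to 12.29 in WT arrays, so that the InvEE arrays lay apart from both other groups. Pap array 4 and WT array 4 had the highest spike levels (12.57 and 12.29, against at most 10.99 elsewhere) and the narrowest deposited interquartile ranges (2.37 and 2.55, against at least 2.72 elsewhere). The 3′ minus 5′ difference of Gapdh probe sets, a measure of RNA integrity, spanned 2.29 to 3.76 in Pap, 1.62 to 3.37 in InvEE and 1.59 to 2.28 in WT arrays, with the highest value in Pap array 4. The same difference of actin probe sets spanned -0.29 to 0.24 in Pap, -0.46 to -0.15 in InvEE and -0.56 to -0.41 in WT arrays. On both measures all Pap arrays lay above all WT arrays, for Gapdh narrowly. Group and RNA integrity therefore cannot be told apart in Pap against WT. Both comparisons against WT share the same 4 WT arrays.

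All 10 members had positive differences in InvEE against WT arrays, with a median of 1.69 on the log2 scale, against -0.09 for all genes. The members were chosen with earlier results of these data known, so the all-gene shares beside them are a description and not a test. Krt15 and Perp were called higher and none lower, or 2 of 10, where limma called 0.533% of all genes, 0.258% as higher and 0.275% as lower. Groups did not overlap for 6 of the 10 (Krt5, Krt14, Krt15, Perp, Dsp and Cd24a), all higher in InvEE, where 15.3% of all genes did not overlap, 5.07% with InvEE higher and 10.2% with InvEE lower. In Pap against WT arrays 4 of 10 were called, Krt14, Krt6b and Dsp higher and Tfap2a lower, where 9.65% of all genes were called, 4.85% higher and 4.8% lower. The median of the 10 was 0.14, against 0.04 for all genes. Groups were apart for Krt14 and Krt6b with Pap higher and for Tfap2a with Pap lower, where 13.8% of all genes were apart, 7.22% with Pap higher and 6.56% with Pap lower. In Pap against InvEE arrays 4 of 10 were called, Krt6b higher and Krt15, Tfap2a and Cd24a lower, where 6.71% of all genes were called, 3.67% higher and 3.04% lower. Here 9 of the 10 differences were negative, with a median of -1.04, against 0.12 for all genes. Groups were apart for Krt6b with Pap higher and for Krt15, Trp63, Tfap2a and Cd24a with Pap lower, where 21.1% of all genes were apart, 14.5% with Pap higher and 6.66% with Pap lower. The spike controls also separated InvEE from WT arrays, with lower values in InvEE, where the 6 members whose groups were apart were higher. Group and spike level cannot be told apart in this comparison. After the spike level entered as a covariate, 5 of the 10 differences in InvEE against WT turned negative (Krt10, Krt6b, Trp63, Tfap2a and Cd24a). No InvEE array (7.92 to 8.68) lay within the spike range of Pap (9.83 to 12.57) or WT arrays (9.27 to 12.29). Wherever the covariate fit is cited for a comparison with InvEE, it cannot separate spike level from group. In that fit limma called 0 members in InvEE against WT (5 at an unadjusted p under 0.05), 4 in Pap against WT and 2, Krt15 and Krt6b, in Pap against InvEE. Over all 18193 genes that fit called 0 in InvEE against WT (2218 at an unadjusted p under 0.05), 2112 in Pap against WT and 306 in Pap against InvEE.

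**Figure D1:**
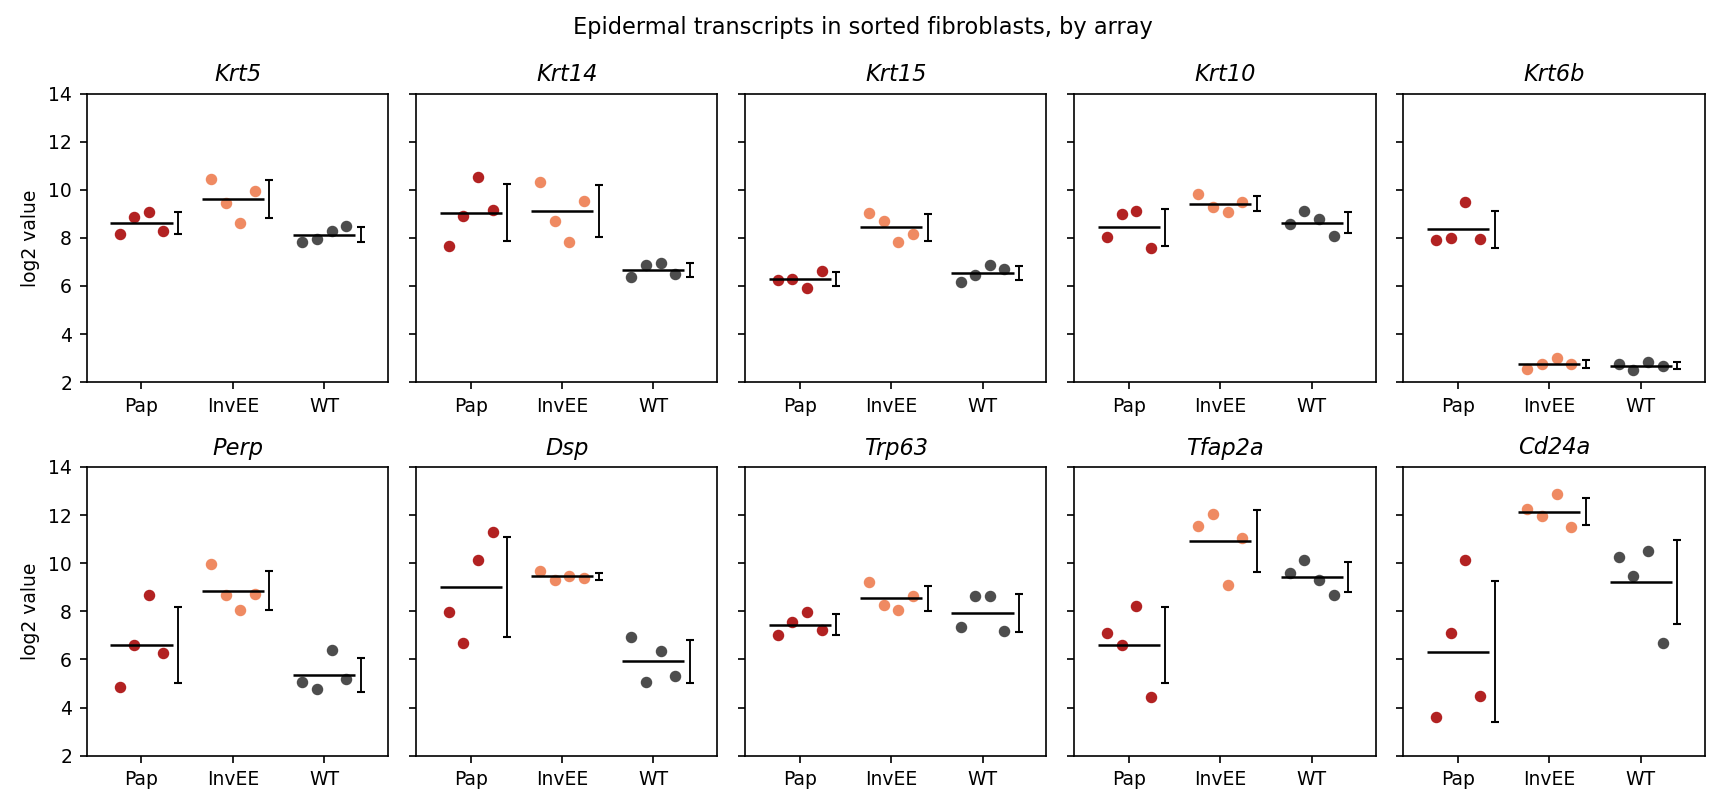
Log2 value of each of the 10 transcripts in every array (points, arrays 1 to 4 from left to right within a group), with group means (horizontal lines) and SD (bars), for Pap, InvEE and WT arrays. Krt6b lies near 8 or above in the 4 Pap arrays and under 3 in the others. Every other transcript has its highest mean in InvEE arrays, Krt14 by little (9.10, against 9.05 in Pap arrays).

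**Figure D2:**
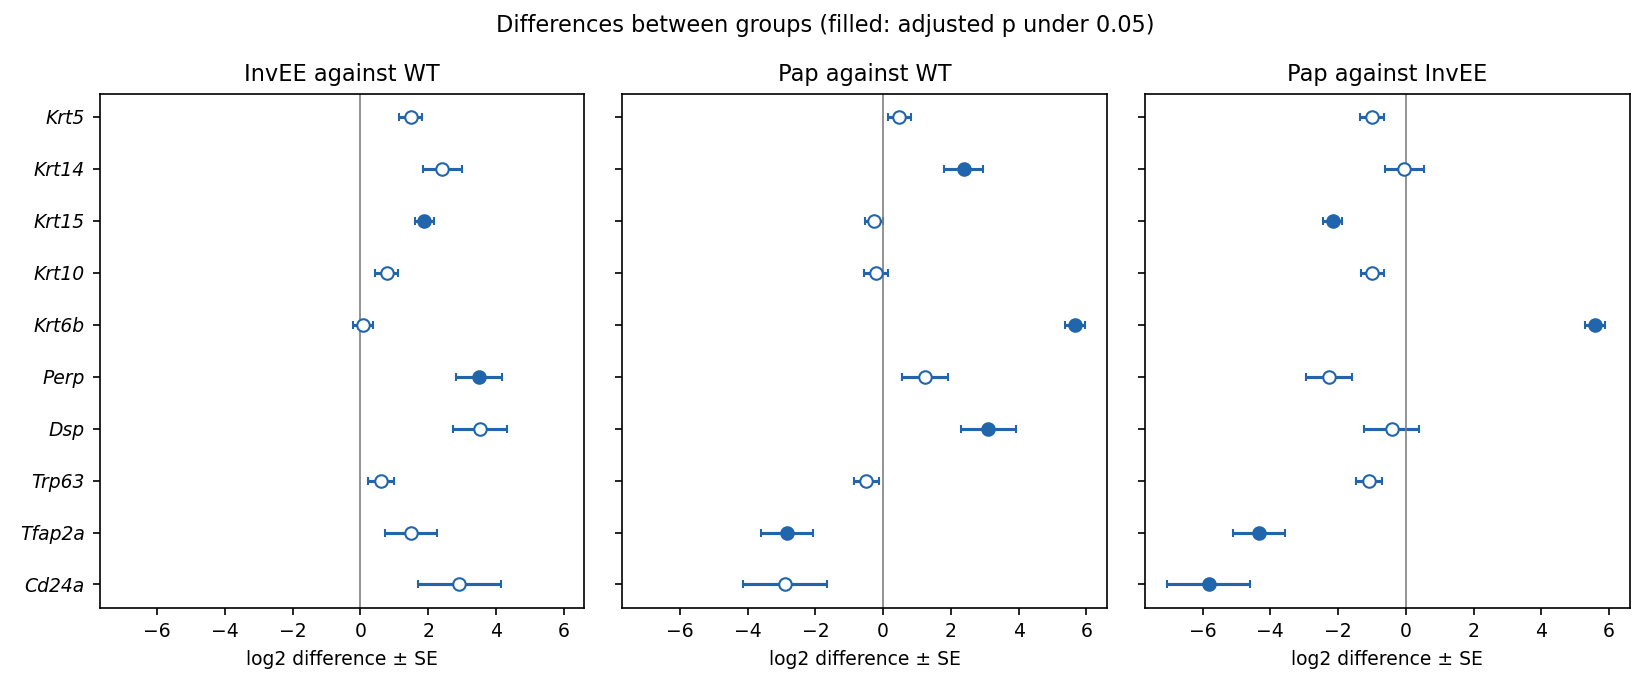
Log2 differences of the 10 transcripts with SE in the 3 comparisons, with filled points for an adjusted p under 0.05. In InvEE against WT all 10 points lie right of 0; in Pap against InvEE only Krt6b does.

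Krt5, the type II keratin of basal keratinocytes, had log2 values of 8.18, 8.88, 9.09 and 8.29 in Pap arrays 1 to 4, 10.46, 9.43, 8.61 and 9.93 in InvEE arrays 1 to 4 and 7.81, 7.95, 8.27 and 8.50 in WT arrays 1 to 4. All InvEE arrays lay above all WT arrays, while Pap arrays overlapped both other groups. The differences were 1.48 ± 0.35 (SE, n = 4 arrays per group) in InvEE against WT (adjusted p = 0.0926), 0.48 ± 0.35 in Pap against WT (adjusted p = 0.481) and -1.0 ± 0.35 in Pap against InvEE (adjusted p = 0.109). None passed by limma, and leaving out InvEE array 3, the lowest of its group, brought the first to 1.81 (adjusted p = 0.0459) and the last to -1.33 (adjusted p = 0.025).

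Krt14, its type I partner, had values of 7.65, 8.92, 10.51 and 9.15 in Pap arrays, 10.33, 8.69, 7.83 and 9.53 in InvEE arrays and 6.37, 6.89, 6.95 and 6.49 in WT arrays. Every Pap and InvEE array lay above every WT array, and the Pap and InvEE arrays overlapped. Krt14 rose in Pap against WT by 2.38 ± 0.58, or 5.21-fold (adjusted p = 0.0228), a call lost without WT array 1 (2.28, adjusted p = 0.0617), without WT array 4 and Pap array 4 together (2.29, adjusted p = 0.0781) and with the replicate block (adjusted p = 0.0622). In InvEE against WT it stood at 2.42 ± 0.58 (adjusted p = 0.0926), and Pap and InvEE differed by -0.04 with a 95% interval from -1.30 to 1.22. The probe set used, 1423935_x_at, has the suffix that Affymetrix gives to sets whose probes also match other transcripts. On 1460347_at, with no such suffix, the differences were 1.66 ± 0.58 in Pap against WT (adjusted p = 0.102) and 1.60 ± 0.58 in InvEE against WT (adjusted p = 0.231), and on the dim 1455573_at 0.16 and 0.04.

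Krt5 and Krt14 placed the InvEE arrays in the same order, array 1 highest, then 4, 2 and 3. Array 3 was the highest and array 1 the lowest Pap array for both genes. In the RefSeq GRCm38.p6 annotation Krt5 lies next to Krt6a on chromosome 15, with Krt6b on the other side of Krt6a, and Krt14 lies between Krt9 and Krt16 on chromosome 11, which also holds Krt10 and Krt15. The 250 bases upstream of Krt5 are shown because they hold a match to the half-site of the p53 family, to which p63, another of the transcripts followed, belongs. The sequence is from RefSeq, GRCm38.p6, chr15:101712906-101713155, minus strand, 5′ to 3′, with the match in capitals.
Krt5 upstream: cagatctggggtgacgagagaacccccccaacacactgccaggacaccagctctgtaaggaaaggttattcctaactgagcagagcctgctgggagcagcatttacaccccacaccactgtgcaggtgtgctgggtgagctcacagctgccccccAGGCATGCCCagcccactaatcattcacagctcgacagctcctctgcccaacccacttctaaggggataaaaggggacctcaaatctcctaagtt
The match runs from base -95 to -86, counted from the start site. Of 32851 upstream windows of the same length, 7.13% hold the half-site on either strand. No TATAAA (12.4% of windows), TGANTCA, an AP-1 motif (6.75%), or GCCNNNGGC, an AP-2 motif (13.7%), was found in these letters on either strand. A match describes these letters and is not a binding site.

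Krt15, a type I keratin of basal cells and of the hair follicle bulge, had values of 6.25, 6.30, 5.90 and 6.62 in Pap arrays, 9.04, 8.72, 7.81 and 8.14 in InvEE arrays and 6.16, 6.46, 6.85 and 6.69 in WT arrays. The InvEE arrays stood apart from both other groups, which overlapped. Krt15 rose in InvEE against WT by 1.89 ± 0.27, or 3.70-fold (adjusted p = 0.0202), and fell in Pap against InvEE by 2.16 ± 0.27 (adjusted p = 0.000609). Pap and WT arrays differed by -0.27 ± 0.27 (adjusted p = 0.615), with a 95% interval from -0.86 to 0.31. The call against WT was lost without InvEE array 1 (1.68, adjusted p = 0.0594), InvEE array 2 (1.79, adjusted p = 0.0875), WT array 1 (1.76, adjusted p = 0.0644) or WT array 2 (1.86, adjusted p = 0.0524), and with the spike covariate (2.22, adjusted p = 0.195). In these fits limma called 0 of all 18193 genes in this comparison, except for 13 without WT array 2 (1967 to 2358 genes had an unadjusted p under 0.05 in the fits with 0 calls). The call in Pap against InvEE held in each of the 12 fits with 1 array left out and with the spike covariate.

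Krt10, the type I keratin of suprabasal cells, had values of 8.04, 8.99, 9.11 and 7.56 in Pap arrays, 9.83, 9.27, 9.08 and 9.49 in InvEE arrays and 8.56, 9.10, 8.78 and 8.09 in WT arrays. All 3 groups overlapped in pairs. Differences were 0.78 ± 0.34 in InvEE against WT (adjusted p = 0.298), -0.21 ± 0.34 in Pap against WT (adjusted p = 0.784) and -0.99 ± 0.34 in Pap against InvEE (adjusted p = 0.101). With the spike covariate the first was -0.10 and the last 0.06.

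Krt6b, a type II keratin induced in wounded and hyperproliferative epidermis, separated the tumour-associated samples. It had values of 7.92, 8.0, 9.51 and 7.97 in Pap arrays, 2.54, 2.75, 2.99 and 2.75 in InvEE arrays and 2.76, 2.49, 2.84 and 2.68 in WT arrays. No Pap array came within the range of another group. Krt6b rose by 5.66 ± 0.30 in Pap against WT (adjusted p = 8.87e-07) and by 5.59 ± 0.30 in Pap against InvEE (adjusted p = 2.05e-06). InvEE and WT arrays differed by 0.07 ± 0.30 (adjusted p = 0.924), with a 95% interval from -0.59 to 0.73. Since both of these groups were dim, the size of the 50.5-fold and 48.2-fold rises depends on how background was treated. Both calls held in all 24 alternative fits in which Krt6b was measured, with differences from 5.27 to 5.87 and from 5.13 to 6.21.

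Krt6a, the neighbouring and closely related keratin gene, is read by another probe set and had values of 7.11, 8.01, 9.84 and 10.55 in Pap arrays, 7.19, 6.69, 6.35 and 6.82 in InvEE arrays and 6.58, 6.44, 6.35 and 6.88 in WT arrays. It rose by 2.31 ± 0.59 in Pap against WT (adjusted p = 0.0283). In Pap against InvEE it stood at 2.11 ± 0.59 with groups overlapping, and did not pass (adjusted p = 0.0531). Pap array 4 was the highest for Krt6a but not for Krt6b, and Pap array 1 was the lowest for both genes. Because the Krt6 genes are near-identical, signal of one gene on the probe set of the other was not tested. Krt16 and Krt17, named here after their values were seen, were not called in any comparison. Krt16 stood at 1.62 ± 0.54 in Pap against WT (adjusted p = 0.0845) and 1.21 ± 0.54 in Pap against InvEE (adjusted p = 0.177). Krt17, dim in Pap and WT arrays, stood at -0.17 ± 0.39 (adjusted p = 0.862) and -0.87 ± 0.39 (adjusted p = 0.183).

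Perp, a tetraspan protein of desmosomes and a p53 and p63 target, had values of 4.85, 6.58, 8.67 and 6.27 in Pap arrays, 9.97, 8.68, 8.04 and 8.72 in InvEE arrays and 5.06, 4.76, 6.38 and 5.19 in WT arrays. InvEE arrays were all above the WT arrays, and Pap arrays reached from below the median of WT into the InvEE range. Perp rose in InvEE against WT by 3.50 ± 0.68, or 11.3-fold, with a dim WT mean (adjusted p = 0.0478). That call lay at the threshold: it was lost in 8 of 12 fits with 1 array left out, namely without any 1 InvEE array, Pap array 2 or WT array 1, 2 or 4, where the difference lay between 3.13 and 3.77 and the adjusted p reached 0.148. It was lost too on the deposited values (adjusted p = 0.0512), with every probe set as a feature (adjusted p = 0.0533), with the replicate block (adjusted p = 0.074) and with the spike covariate (2.58, adjusted p = 0.343). Differences of 1.24 ± 0.68 in Pap against WT (adjusted p = 0.317) and -2.26 ± 0.68 in Pap against InvEE (adjusted p = 0.0696) did not pass, the second being -2.95 (adjusted p = 0.0101) without Pap array 3.

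Dsp encodes desmoplakin, which ties keratin filaments to the desmosome. Its values were 7.98, 6.70, 10.12 and 11.30 in Pap arrays, 9.67, 9.29, 9.47 and 9.37 in InvEE arrays and 6.95, 5.05, 6.37 and 5.30 in WT arrays. The InvEE arrays lay close together (SD 0.16), whereas the Pap arrays spread widely (SD 2.08) and overlapped both other groups. Dsp rose in Pap against WT by 3.11 ± 0.81 (adjusted p = 0.0303), with a dim WT mean, a call lost without Pap array 3 (2.74) or 4 (2.35) or WT array 2 (2.82), 3 (3.26) or 4 (2.90). It was lost as well with the median over probe sets (1.86, adjusted p = 0.0652), in a separate fit of the 8 arrays compared (adjusted p = 0.0917) and without WT array 4 and Pap array 4 together (2.14, adjusted p = 0.1). Of 24 alternative fits 15 kept this call. In InvEE against WT the difference was 3.53 ± 0.81 (adjusted p = 0.0824; 0.0475 without Pap array 2, 0.0289 without Pap array 4 and 0.0235 in a fit of the 8 arrays compared), and Pap and InvEE differed by -0.42 with a 95% interval from -2.18 to 1.33.

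The probe sets of Dsp disagreed about Pap array 4, which had the highest spike level (12.57) and Gapdh 3′ minus 5′ difference (3.76). A link between these values and the disagreement was not tested. On the second probe set, 1435494_s_at, that array had 4.56, the lowest Pap value, against 11.30 on the probe set used. There Pap arrays had 6.77, 6.09, 8.05 and 4.56, InvEE arrays 8.49, 7.70, 7.35 and 7.97 and WT arrays 3.98, 3.93, 5.42 and 4.33. Dsp rose in InvEE against WT by 3.46 ± 0.60 on this probe set (adjusted p = 0.0382 over all probe sets), and Pap against WT stood at 1.95 ± 0.60 (adjusted p = 0.0681). So the 2 probe sets gave like differences in InvEE against WT and placed the calls in different comparisons. The third, 1427610_at, was dim in all groups and gave 0.28 and 0.10.

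The 250 bases upstream of Dsp are shown because they hold 1 match each to the AP-2 motif GCCNNNGGC and to the p53 family half-site, motifs of the families of Tfap2a and Trp63. The sequence is from RefSeq, GRCm38.p6, chr13:38151044-38151293, plus strand, with both matches in capitals, the half-site first.
Dsp upstream: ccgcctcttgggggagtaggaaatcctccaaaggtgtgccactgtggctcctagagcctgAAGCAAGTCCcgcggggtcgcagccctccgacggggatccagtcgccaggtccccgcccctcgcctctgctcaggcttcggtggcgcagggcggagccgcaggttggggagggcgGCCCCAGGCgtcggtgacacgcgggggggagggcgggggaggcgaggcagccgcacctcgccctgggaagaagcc
The half-site runs from base -190 to -181 and the AP-2 match from -75 to -67. The shares of upstream windows that hold these motifs are those given for Krt5. On the probe sets used, Dsp rose and Tfap2a fell in Pap against WT arrays, though Dsp was not called there on 1435494_s_at. A link between these genes was not tested. Upstream windows of 5 of the 10 members were in the table used, and those of Krt14, Krt10 and Tfap2a began inside the gene's own record and were not printed.

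Trp63 encodes p63, the transcription factor that basal keratinocytes depend on. Its values were 7.03, 7.57, 7.99 and 7.22 in Pap arrays, 9.24, 8.25, 8.04 and 8.64 in InvEE arrays and 7.34, 8.65, 8.62 and 7.17 in WT arrays. Pap arrays lay below InvEE arrays, narrowly between Pap array 3 and InvEE array 3, and WT arrays overlapped both. No difference passed: 0.60 ± 0.38 in InvEE against WT (adjusted p = 0.463), -0.49 ± 0.38 in Pap against WT (adjusted p = 0.51) and -1.09 ± 0.38 in Pap against InvEE (adjusted p = 0.108). On its 3 other probe sets all differences lay between -0.30 and 0.27.

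Tfap2a encodes AP-2α, a transcription factor of the epidermis and of neural crest derivatives. It had values of 7.08, 6.62, 8.22 and 4.45 in Pap arrays, 11.53, 12.04, 9.09 and 11.06 in InvEE arrays and 9.61, 10.14, 9.30 and 8.66 in WT arrays. All Pap arrays lay below all other arrays, and InvEE array 3 lay among the WT arrays. Tfap2a fell by 4.34 ± 0.76 in Pap against InvEE (adjusted p = 0.00568) and by 2.83 ± 0.76 in Pap against WT (adjusted p = 0.0349). Both falls were called on each of its 2 other probe sets too, at -2.48 and -3.22 against InvEE and at -1.97 and -1.86 against WT. The call against WT was lost without Pap array 1, 2 or 4, InvEE array 4 or any of WT arrays 1 to 3, where the difference lay between -3.0 and -2.12 and the adjusted p reached 0.0956, and without Pap array 4 and WT array 4, which stood apart in spike level, together (-2.38, adjusted p = 0.053). Without that pair Pap against InvEE was -3.62 (adjusted p = 0.00765). InvEE and WT arrays differed by 1.5 ± 0.76 (adjusted p = 0.359), or -0.11 with the spike covariate. With that covariate Pap against InvEE was -2.41 (adjusted p = 0.309).

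Cd24a, a small surface glycoprotein found on keratinocytes, follicle cells and several blood cell types, had the widest spread of the 10 transcripts within Pap arrays (SD 2.95) and within WT arrays (SD 1.75). Its values were 3.59, 7.12, 10.14 and 4.46 in Pap arrays, 12.25, 11.97, 12.89 and 11.49 in InvEE arrays and 10.24, 9.47, 10.52 and 6.70 in WT arrays. InvEE arrays lay above all others, and Pap arrays overlapped the WT arrays. Cd24a fell in Pap against InvEE by 5.82 ± 1.23 (adjusted p = 0.016), a call kept in each of 12 fits without 1 array but not with the spike covariate (-1.65, adjusted p = 0.616). Differences of 2.92 ± 1.23 in InvEE against WT (adjusted p = 0.285) and -2.90 ± 1.23 in Pap against WT (adjusted p = 0.183) did not pass, the second being -4.17 (adjusted p = 0.0209) without Pap array 3, and the first being -0.58 with the spike covariate. The other probe sets gave -4.11 (adjusted p = 0.0473) and -4.86 (adjusted p = 0.0704) in Pap against InvEE. On these WT array 4 had 4.12 and 3.92, well under the other WT arrays, which had between 7.98 and 10.80. Without WT array 4 and Pap array 4, which stood apart in spike level, Cd24a differed by -5.20 in Pap against InvEE (adjusted p = 0.0235), -3.12 in Pap against WT (adjusted p = 0.152) and 2.07 in InvEE against WT (adjusted p = 0.382). The suffix of the probe set used, 1437502_x_at, again marks probes that match other transcripts.

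**Figure D3:**
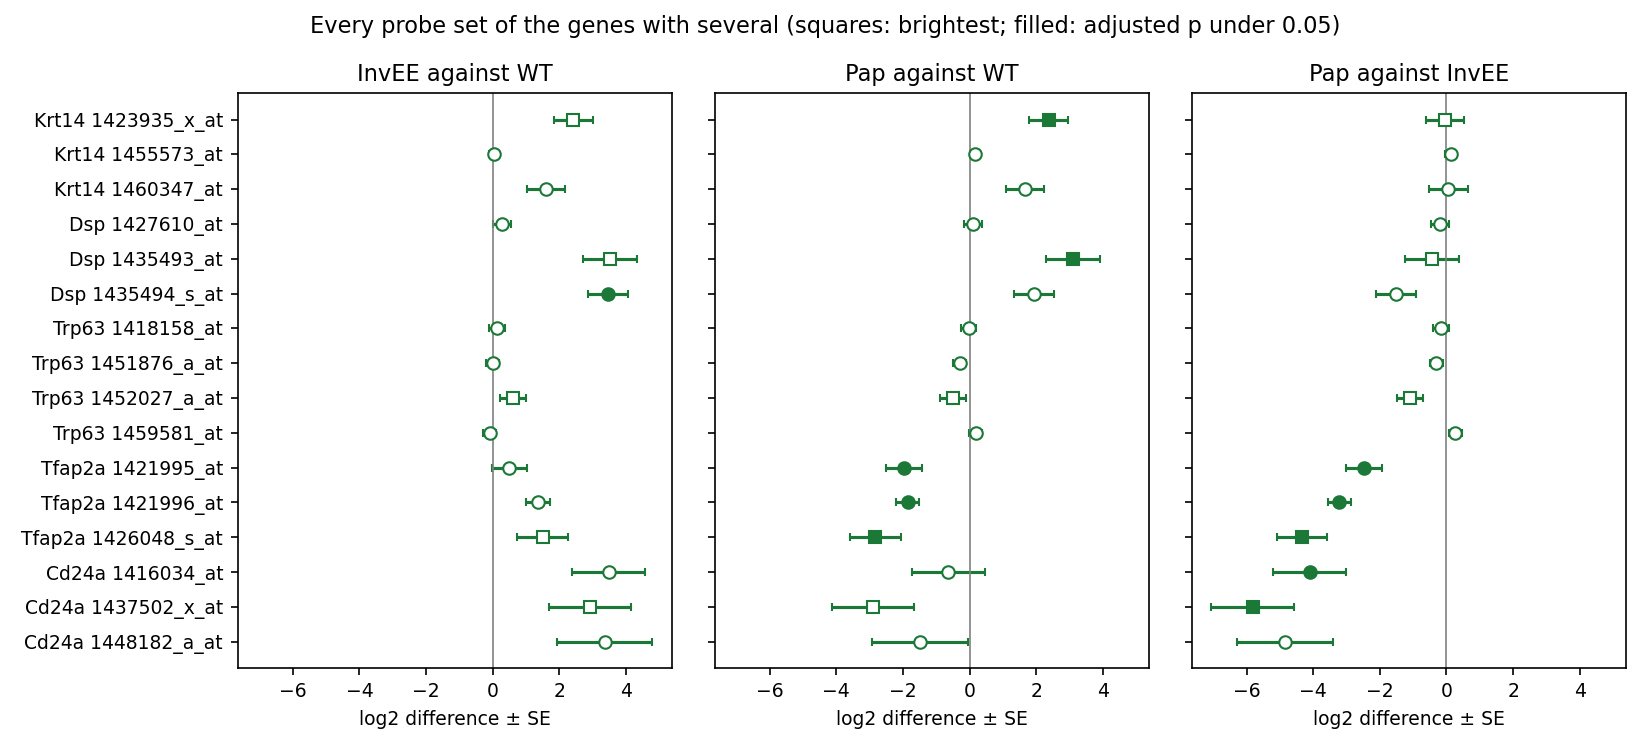
Log2 differences with SE for every probe set of the 5 genes that have several, in the 3 comparisons; squares mark the brightest probe set of a gene and filled symbols an adjusted p under 0.05 over all probe sets. The 3 Tfap2a probe sets lie left of 0 in both Pap comparisons, while the Krt14, Dsp and Trp63 probe sets differ in size.

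Over the 5 members with several probe sets, 27 of 33 differences on the other probe sets had the sign of the brightest one. Blood cell markers were set beside Cd24a. The mean of 15 leukocyte markers was 6.48 to 6.63 in Pap, 6.10 to 6.93 in InvEE and 6.69 to 6.99 in WT arrays, and 0 of the 15 were called in Pap against InvEE by limma (0 at an unadjusted p under 0.05), where 6.71% of all genes were. Csf1r, a receptor of macrophages, fell by 2.14 ± 0.45 in Pap against WT with groups apart (adjusted p = 0.0102). It was the 1 marker of 15 called there, where 9.65% of all genes were called. Of the 15 differences there 9 were negative and 6 positive. In InvEE against WT 0 were called and 3 had an unadjusted p under 0.05, named here after their values were seen: Cd74 at -1.99, Csf1r at -1.28 and Tyrobp at -0.96. Of the 15, 6 were dim in all groups, and the part of these cells in the Cd24a values was not tested. The mean of 3 erythrocyte markers was 5.74 to 5.84 in Pap, 5.48 to 5.77 in InvEE and 5.60 to 6.19 in WT arrays, with 0 called in Pap against InvEE by limma (2 at an unadjusted p under 0.05).

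Another AP-2 gene and 2 hair follicle and gland genes also fell in Pap against InvEE arrays. Tfap2c, the AP-2γ gene, had values of 9.39, 7.65, 9.42 and 8.24 in Pap arrays, 12.37, 12.40, 12.05 and 11.92 in InvEE arrays and 11.04, 11.27, 10.62 and 10.34 in WT arrays, with no overlap between any 2 groups. It fell by 3.51 ± 0.37 in Pap against InvEE (adjusted p = 0.000207) and by 2.14 ± 0.37 in Pap against WT (adjusted p = 0.00333). Of 5 measured genes of these families, Trp73 rose slightly in Pap against InvEE (0.62 ± 0.17, adjusted p = 0.0464), and the other 3 were not called. Among 20 hair follicle and gland genes, Lgr6, a receptor of follicle stem cells, fell by 3.38 ± 0.61 in Pap against InvEE (adjusted p = 0.00636). Mc5r, a melanocortin receptor of sebaceous glands, fell by 3.44 ± 0.46 (adjusted p = 0.000994), and both were dim in Pap arrays. Krt7, a keratin of simple and glandular epithelia, rose by 1.61 ± 0.37 (adjusted p = 0.0229). Mc5r was also lower in Pap against WT (-1.67 ± 0.46, adjusted p = 0.0396). The median of the follicle and gland list in Pap against InvEE was -0.04, against 0.12 for all genes.

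**Figure D4:**
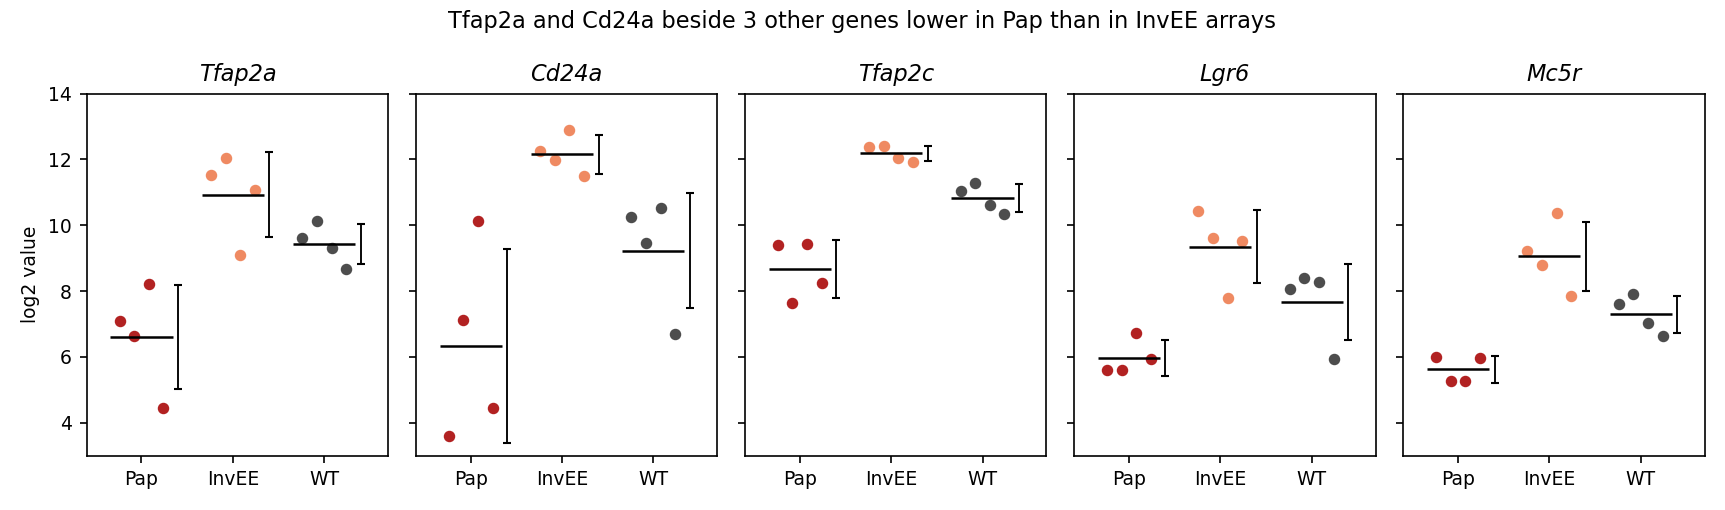
Log2 values by array of Tfap2a, Cd24a, Tfap2c, Lgr6 and Mc5r in Pap, InvEE and WT arrays (points, arrays 1 to 4 from left to right), with group means (lines) and SD (bars). Each gene has its highest mean in InvEE and its lowest in Pap arrays.

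The other keratinocyte lists are read against 0.533%, 9.65% and 6.71% of all genes called in InvEE against WT, Pap against WT and Pap against InvEE. Of 16 measured basal and hyperproliferative genes, Col17a1, the hemidesmosome collagen of basal cells, rose in InvEE against WT by 1.82 ± 0.28 (adjusted p = 0.022) and fell in Pap against InvEE by 2.42 ± 0.28 (adjusted p = 0.000444), the pattern of Krt15, with a dim mean in Pap and WT arrays. The list had 1 called gene in each comparison, with medians of 0.17, 0.08 and 0.08 in InvEE against WT, Pap against WT and Pap against InvEE. Among 20 suprabasal and cornified envelope genes 0 were called in InvEE against WT (3 at an unadjusted p under 0.05), S100a9 rose by 1.11 ± 0.24 in Pap against WT (adjusted p = 0.013) and S100a9 (1.02 ± 0.24) and Casp14 (0.74 ± 0.17) rose in Pap against InvEE. S100a9 is also a neutrophil gene and Casp14 a caspase of cornifying cells, and both were dim in InvEE and WT arrays. In Pap against WT 16 of these 20 differences were positive, 6 had groups apart with Pap higher (7.22% of all genes), and the median was 0.45, against 0.04 for all genes. In InvEE against WT the median was 0.27, against -0.09 for all genes. Krt1, the partner of Krt10, named after its values were seen, stood at 2.7 ± 0.74 in InvEE against WT (adjusted p = 0.123) and 1.92 ± 0.74 in Pap against WT (adjusted p = 0.135), with groups apart in both and a dim WT mean. Of 17 desmosome and adherens junction genes Ppl, which encodes periplakin, fell by 2.06 ± 0.34 in Pap against WT (adjusted p = 0.0024) and by 1.24 ± 0.34 in Pap against InvEE (adjusted p = 0.048), and 0 were called in InvEE against WT (3 at an unadjusted p under 0.05). The brightest of that list, Ctnna1 and Plec, encode general cytoskeletal linkers and had means of 11.31 and 11.06 in Pap, 11.46 and 10.95 in InvEE and 11.09 and 11.12 in WT arrays. None of 4 simple epithelium keratins was called by limma in any comparison (1, 0 and 1 at an unadjusted p under 0.05).

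**Figure D5:**
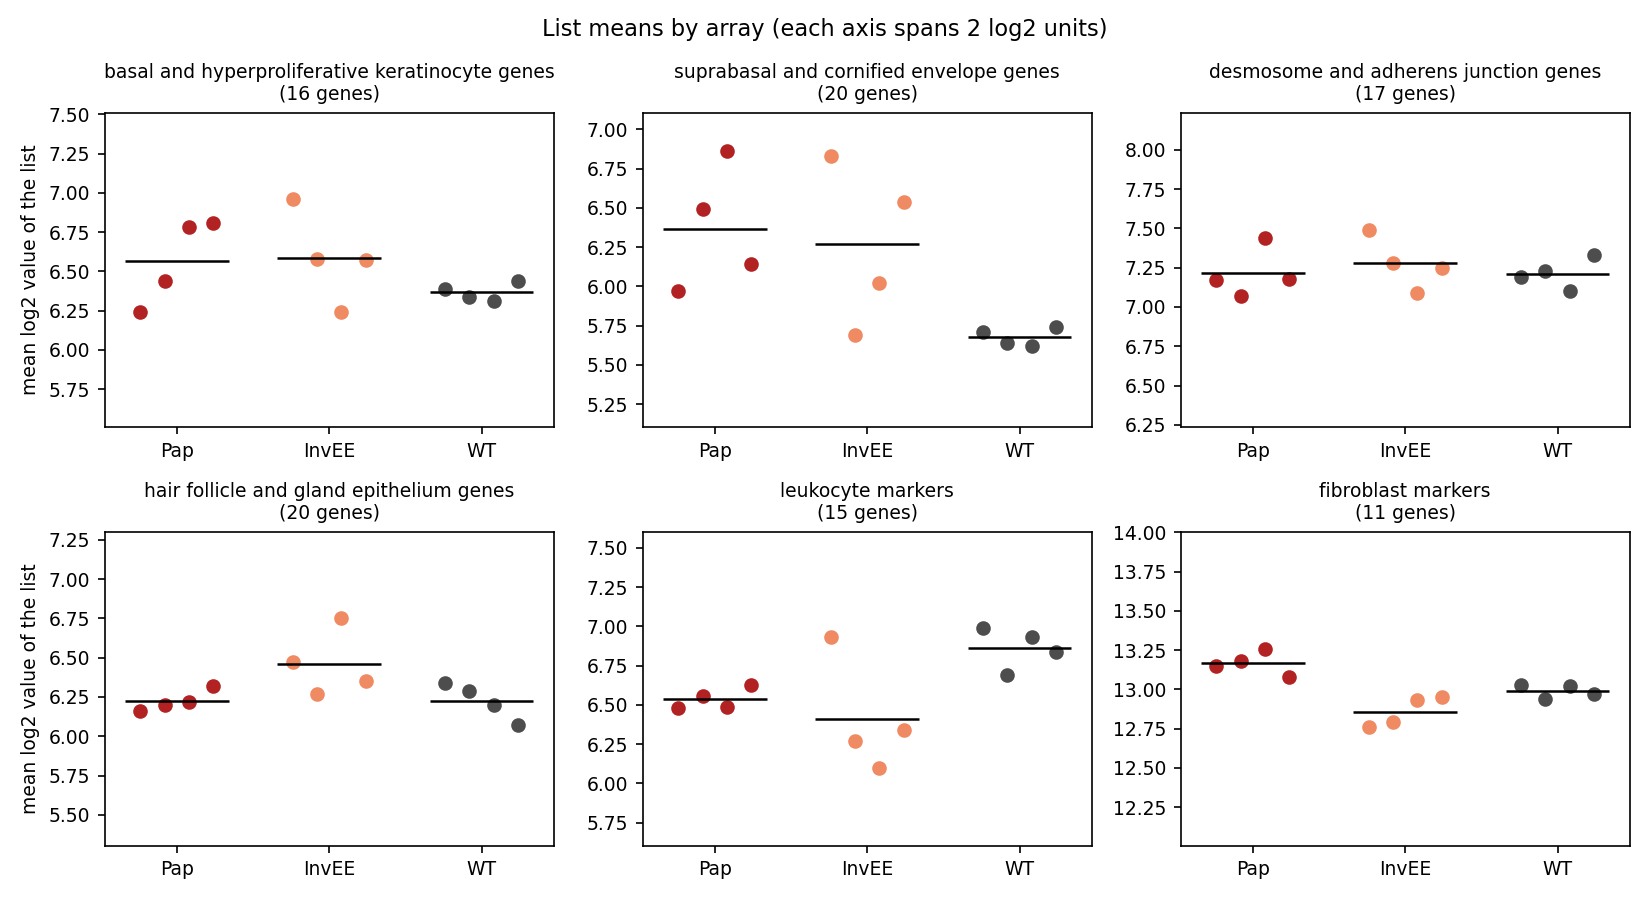
Mean log2 value over the measured genes of 6 lists in each array (points, arrays 1 to 4 from left to right) with group means (lines), for Pap, InvEE and WT arrays. The suprabasal list lies between 5.97 and 6.86 in Pap and between 5.69 and 6.83 in InvEE arrays, against 5.62 to 5.74 in WT arrays, and the fibroblast markers are higher in Pap than in InvEE arrays.

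The levels of the 10 members differed between arrays of 1 group. InvEE array 1 was the highest of its group for 7 of the 10 members and InvEE array 3 the lowest for 7. Pap array 3 was the highest Pap array for 8 of the 10, and Pap array 1 the lowest for 6. Without InvEE array 1 and Pap array 3 together, limma called 0 members in InvEE against WT (6 at an unadjusted p under 0.05), 4 in Pap against WT and 5 in Pap against InvEE. Over all genes that fit called 0 in InvEE against WT (2182 at an unadjusted p under 0.05), 1297 in Pap against WT and 536 in Pap against InvEE. The means of the suprabasal list were likewise highest in InvEE array 1 (6.83) and Pap array 3 (6.86) of their groups, as were those of the junction list (7.49 and 7.44). The basal list was highest in InvEE array 1 (6.96) and Pap array 4 (6.81), the follicle and gland list in InvEE array 3 (6.75) and Pap array 4 (6.32). InvEE array 1 was also the highest InvEE array for leukocyte (6.93) and endothelial markers (6.53) and the lowest for fibroblast markers (12.76). How many of all genes were highest in these arrays was not counted.

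Dmkn, a secreted dermokine of suprabasal keratinocytes, followed the mean of Krt5 and Krt14 most closely over the 12 arrays. It was picked among 12871 other genes whose mean over the 12 arrays was above 6.16. Its Pearson correlation was 0.932 and its Spearman correlation 0.958, and the Pearson value was 0.844 after group means were subtracted and 0.916 without the 2 arrays farthest from the median. Next came Serpinb5, a serpin of epithelial cells (0.845), Krtdap, a secreted protein of suprabasal keratinocytes (0.826), Madd, a signalling adaptor (0.823), Lgals7, the galectin of stratified epithelia (0.823), and S100a14, an epithelial calcium-binding protein (0.823), with 0.733, 0.736, 0.785, 0.921 and 0.764 after group means were subtracted. These values describe 12 arrays that share their groups and were selected as the highest of many. None of the 6 was called in any comparison. Dmkn stood at 2.06 in InvEE against WT (adjusted p = 0.0866) and Krtdap at 2.42 (adjusted p = 0.256), both with a dim WT mean. Among the members themselves, the Pearson correlation with the same mean was 0.889 for Perp and 0.707 for Dsp, and 0.20 for Tfap2a and 0.246 for Krt6b. After group means were subtracted it was 0.852 for Perp, 0.182 for Dsp, 0.466 for Tfap2a and 0.353 for Krt6b. For Trp63, Krt10, Cd24a and Krt15 it was then 0.679, 0.603, 0.41 and 0.372, so that Dsp came lowest of the members.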

How the data were processed

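RNA of 12 sorted fibroblast samples was measured on Affymetrix mouse arrays, 1 per sample; RNA was amplified with a NuGEN kit, per the labels' protocols. The deposited table holds log2 values of 45101 probe sets, from 2.08 to 14.955. No source used here gives their background correction, summary or normalization; the submitters' processing notes name limma. Quartiles of the deposited values differed by up to 0.284 between arrays, so quantile normalization was applied, by a rule that set 0.1 as the limit. Of the probe sets 34945 had 1 gene symbol, 932 several and 9160 none, beside 64 controls; the brightest per symbol gave 18193 genes. limma 3.58.1 in R 4.3.3 fitted 3 group means to 12 arrays and gave two-sided Benjamini-Hochberg adjusted p-values over all genes. Differences between probe sets were tested in a fit of all 34945. The number of arrays limits the precision.

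Named genes are the 10 members, up to 4 called genes per list and comparison with the smallest p, the brightest 3 of a list, and the 6 most correlated with the mean of Krt5 and Krt14. Members and lists were chosen with earlier results of these data known. Endothelial, Schwann cell and melanocyte markers served as further lists, with 0 called by limma in any comparison (1 endothelial marker each in InvEE against WT and Pap against WT, and 1 Schwann cell and melanocyte marker in Pap against WT, at an unadjusted p under 0.05). No 2 arrays shared over 0.253% of identical values, so no array was a copy of another, and each was counted as 1 sample. Alternatives covered normalization, probe set choice, dim genes, samples, covariates, replicate number, array weights, threshold and single arrays.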

Additional observations from a re-analysis of the deposited data

Results flagged for a closer look

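Krt6b in Pap array 3 had 9.51, far above the other Pap arrays, which lay between 7.92 and 8.0. Its gap to the nearest was 0.949 of the group's range. It was 1 of 30 groups of 4 arrays examined, and chance flags about 1 in 20 groups.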

How the results depend on the processing

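Of 720 member differences under alternatives, 642 kept their direction and side of the threshold, 44 lost a call, 15 gained one and 19 changed sign. Of 2 members called in InvEE against WT, limma called 0 at an adjusted p under 0.01 and 0 with the spike covariate, 1 on the deposited values, 1 with every probe set as a feature, 1 with the replicate block, 5 with array weights (839 of all genes, against 97), 0 to 3 with 1 array left out (0 without InvEE array 1 or 2 or WT array 1 or 2, with 5 to 6 at an unadjusted p under 0.05, where 0, 0, 0 and 13 of all genes were called), 1 without WT array 4 and Pap array 4 and 0 without InvEE array 1 and Pap array 3 (6 at an unadjusted p under 0.05). Over all genes InvEE against WT had 62 calls on deposited values, 76 with every probe set and 57 with the replicate block. It had 0 to 249 with 1 array left out and 219 without WT array 4 and Pap array 4, against 97. Of 4 in Pap against WT limma called 1 at 0.01, 2 with the median over probe sets, 2 to 4 with 1 array left out (2 without Pap array 4 or WT array 1, 2 or 3) and 1 without WT array 4 and Pap array 4. Over all genes it called 1812 with the median, 1259 to 1792 with 1 array left out and 1937 without that pair, against 1756. How many of all genes passed 0.01 was not counted. Of 4 in Pap against InvEE limma called 2 with the spike covariate and 4 to 5 with 1 array left out. Over all genes it called 306 and 578 to 1581 in these fits, against 1221. Pairs of arrays left out together were chosen after seeing the data.

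No sign change involved a called difference. In InvEE against WT, the spike covariate gave -0.10 for Krt10, -0.45 for Krt6b, -0.18 for Trp63, -0.11 for Tfap2a and -0.58 for Cd24a, and Krt6b was -0.09 on the deposited values, -0.12 after the ribosomal protein shift and -0.01 to 0.14 with 1 array left out. Krt10 in Pap against WT lay between -0.44 and 0.08 with 1 array left out. In Pap against InvEE, Krt14 was 0.35 after the ribosomal shift, 0.06 with the median and with probe sets without suffix, 0.45 with the spike covariate and -0.53 to 0.43 with 1 array left out. Krt10 was 0.06 with the spike covariate, and Dsp was -1.18 to 0.35 with 1 array left out. The cause was not tested. The ribosomal shift, from 46 genes, moved all differences by -0.19 in InvEE against WT, 0.21 in Pap against WT and 0.39 in Pap against InvEE.

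Same-numbered arrays of different groups deviated together with correlations from -0.094 to 0.177, over 0.1 in 2 of 12 pairs, so the numbers were not taken to pair the samples. The replicate block ended the calls of Perp in InvEE against WT (adjusted p = 0.074) and Krt14 in Pap against WT (adjusted p = 0.0622).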
